A study of Sus scrofa with 2 samples.

Results

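The small leucine-rich proteoglycans are secreted matrix proteins, and 8 of their genes were examined here in the chromatin contact map of pig spleen. The 8 genes are PRELP, FMOD, DCN, LUM, KERA, BGN, ASPN and OGN, of 19550 protein-coding genes on the placed chromosomes. They were listed by name, and the set was chosen by the number of loops at PRELP and by its loops to FMOD, so that these numbers are a description and carry no test. A loop was assigned to a gene when one of its anchors held an annotated gene end or lay within 50 kb of one. By this rule 9 of the 3410 listed loops belonged to the set. Chromatin contacts had been mapped by in situ Hi-C, in which fixed chromatin is cut, ligated and sequenced as pairs, in 2 replicates of a single group, spleen of Sus scrofa. No treatment, strain, age or sex is given in the labels used here. Loops and domains were listed for the series as a whole, with no value per replicate, so the spread between the replicates is unknown. The depth of the libraries is unknown as well. The errors below are 95% exact Poisson intervals of the contact counts and cover counting error only.

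Proteins of this family have a core of leucine-rich repeats that binds collagen, and most carry chains of chondroitin, dermatan or keratan sulfate. They set the diameter and spacing of collagen fibrils, and several bind growth factors of the TGF-beta family. The family is divided into classes by sequence, with DCN, BGN and ASPN in class I, LUM, KERA, FMOD and PRELP in class II and OGN in class III. Many of its genes lie in short clusters that hold members of different classes side by side. In the spleen, collagen and its associated proteins form the capsule, the trabeculae and the reticular framework. Hi-C gives no expression level, so whether the genes were transcribed in these samples was not measured, and in whole tissue the contacts of matrix-producing cells cannot be told apart from those of the blood cells.

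The 8 genes lay at 4 loci, and only the locus on chromosome 9 had loop anchors at member ends. FMOD occupied 64062995 to 64073853 and PRELP 64190978 to 64207008 of chromosome 9 (Sscrofa11.1). The ends of FMOD fell in the bin from 64050001 to 64075000, whereas the lower and upper ends of PRELP fell in the adjoining bins from 64175001 and from 64200001. All 3 bins were anchors. PRELP had 5 loops at its ends and FMOD had 3, and 2 of these loops joined the pair. The other 6 genes had 0. Over all protein-coding genes, 17.3% met an anchor with a gene end, 1.25% had 3 or more loops and 0.0665% had 5 or more. These shares are given for scale, since PRELP was chosen for its loops. With 50 kb allowed, OGN joined PRELP and FMOD, giving 3 of 8 members against 40.8% of protein-coding genes. On the inner side of that limit the closest member was OGN, with an anchor at 16.5 kb, and on the outer side ASPN, at 65.6 kb.

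**Figure D1:**
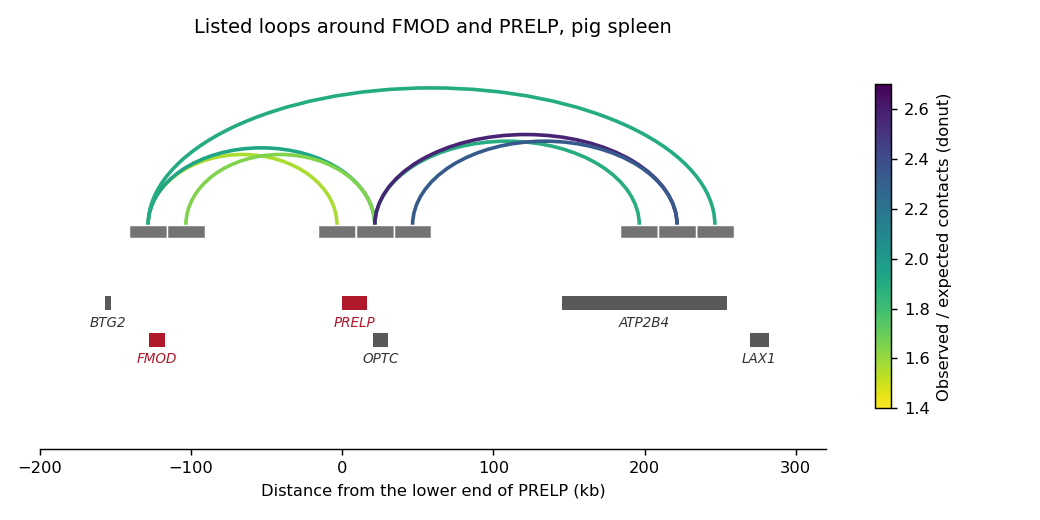
Listed loops (arcs from anchor centre to anchor centre, coloured by observed over expected contacts), anchors (grey boxes of 25 kb) and protein-coding genes (boxes below, members in red) on chromosome 9, by distance in kb from the lower end of PRELP. Arc height has no scale beyond growing with span. The arcs form 3 sets between 3 places, at FMOD, at PRELP with OPTC, and in ATP2B4, and the darkest arc, at 2.57, joins PRELP and OPTC to ATP2B4.

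FMOD, or fibromodulin, carries keratan sulfate and binds type I collagen, and PRELP binds heparin and collagen at basement membranes. The genes are neighbours, with 117 kb between them and 0 other annotated genes in that interval. The shorter of the 2 loops joining them, between the bins at 64050001 and 64175001, spanned 125 kb and had 110 observed contacts (90.4 to 133). The authors' deposited table expected 70.4 contacts there from the surrounding donut of pixels (the authors' expected values and FDR are used throughout), a ratio of 1.56 (1.28 to 1.88). The other, from the same FMOD bin to the bin at 64200001, spanned 150 kb and had 115 contacts (94.9 to 138) against 59.6 expected, a ratio of 1.93 (1.59 to 2.32). The intervals of the pair overlap, in counts and in ratios. Another pixel, from the bin at 64075001 to that at 64200001, missed the upper end of FMOD by 1.15 kb and had 112 contacts (92.2 to 135), with a ratio of 1.65 (1.36 to 1.98). The 3 pixels form a single group of touching pixels and are not independent.

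By the donut ratio, the shorter PRELP to FMOD pixel was weak among listed loops of its span, and the longer was not. The pixel of 125 kb had a ratio at or above that of 1.61% of the 436 autosomal loops of equal span, whose median was 1.87, and the pixel beside FMOD stood at 11.2%. The pixel of 150 kb stood at 57.0% of 279 loops, near their median of 1.87. In the same order, their observed counts were at 32.8%, 35.3% and 49.8% of these loops and their expected contacts at 57.8%, 53.0% and 41.2%. The lower ratios of the pixels of 125 kb thus came with observed contacts below the middle of the range and expected contacts above it. Each listed loop carries 4 FDR values, q-values against 4 neighbourhoods of the pixel, and the largest of these was 0.0444 for the pixel of 125 kb, 0.0111 for that of 150 kb and 0.0262 for the pixel beside FMOD. In all 3 the vertical neighbourhood gave the largest value. Against that neighbourhood the ratios, in the order of these FDR values, were 1.46, 1.81 and 1.69. For the pixel of 150 kb the donut gave the highest ratio, and the lower-left and horizontal neighbourhoods gave 1.71 and 1.78. Ratios were ranked among loops of equal span for the donut alone.

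PRELP also had loops toward higher coordinates, to the body of ATP2B4, a plasma membrane calcium pump. The bin from 64200001 to 64225000, which holds an end of PRELP and the whole of OPTC, was joined to the bin at 64400001 by a loop of 200 kb. This pixel had 130 contacts (109 to 154) against 50.6 expected, a ratio of 2.57 (2.15 to 3.05). The ratio was at or above that of 92.2% of 256 autosomal loops of the span, and the largest FDR was 1.09e-09, the lowest of the 9 loops. The pixel beside it, to the bin at 64375001, had 110 contacts (90.4 to 133) and a ratio of 1.89 (1.55 to 2.28), at 26.0% of 342 loops. Neither far bin held a gene end. Both lay within ATP2B4, which runs from 64336354 to 64445669. A further pixel started just above PRELP, in the bin at 64225001, and reached the bin at 64400001. It had 107 contacts (87.7 to 129) and a ratio of 2.33 (1.91 to 2.82), at 83.0% of 342 loops, with a largest FDR of 0.00019.

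The strongest pixel toward ATP2B4 and the shorter PRELP to FMOD pixel had the highest and lowest ratios of the 9 loops, and their intervals do not overlap. They were set side by side after their values were seen. Their spans also differ, at 200 and 125 kb, with medians of 2.07 and 1.87 among autosomal loops of equal span. The interval of the strongest pixel overlaps that of the PRELP to FMOD pixel of 150 kb, at 1.93. As PRELP was chosen for these loops, no test was made of the difference. FMOD itself was joined to ATP2B4 by a loop of 375 kb, between the bins at 64050001 and 64425001, and the far bin held the upper end of ATP2B4. It had 77 contacts (60.8 to 96.2) against 40.5 expected, a ratio of 1.90 (1.50 to 2.38), at 14.0% of the 50 autosomal loops of 375 kb, whose median was 2.26. Its largest FDR was 0.0531, against the horizontal neighbourhood. PRELP and OPTC lay between the anchors of this loop.

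The loops of the locus thus joined 3 places pairwise, at FMOD, at PRELP with OPTC, and in ATP2B4, when corners were allowed to differ by a bin of 25 kb. Counted in this way, 115 of 3402 placed loops (3.38%) were the outer side of such a triangle, and 299 (8.79%) were part of one. Of the 9 loops near members, 6 were part of one, and all of these were on chromosome 9. The set was chosen for loops that form sides of these triangles, so this count is given for scale. Several of the 6 loops touch one another, so the triangles are not independent. Each of these triangles had the FMOD to ATP2B4 loop, with its largest FDR of 0.0531, as its outer side, so that none remained among loops with an FDR up to 0.05. The bin from 64200001 had 2 loops to lower and 2 to higher coordinates, and in each direction these 2 were touching pixels. Of 5285 placed anchors, 10 had 2 or more each way and 116 had at least 1 each way. These counts are given for scale, since the bin holds an end of PRELP, which was chosen for its loops. Of placed loops, 52.4% touched another listed pixel. The 7 loops of chromosome 9 formed 3 groups of touching pixels, and with a single pixel per group PRELP had 2 loops, FMOD had 2 and the pair shared 1.

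**Figure D2:**
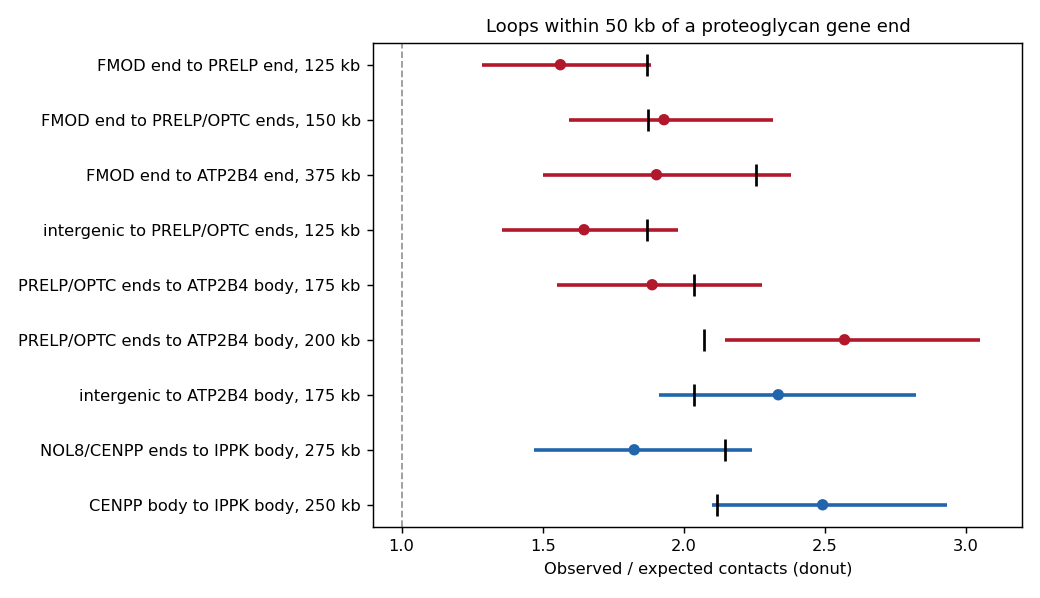
Observed over expected contacts of the 9 loops within 50 kb of a member end, with 95% exact Poisson intervals of the observed count (lines) and the median of autosomal loops of equal span (black ticks); red points have an anchor at a member end and blue points do not, and the dashed line marks a ratio of 1. The points run from 1.56 for the FMOD to PRELP pixel of 125 kb to 2.57 for the loop from PRELP and OPTC into ATP2B4, whose interval lies wholly above its tick.

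OPTC, or opticin, a class III member known from the vitreous of the eye, shared most of the loops of PRELP. Of the 5 loops at PRELP ends, 4 were also at OPTC ends, a Jaccard index (shared loops over loops of either gene) of 0.80. OPTC starts 4.47 kb above PRELP, in the bin of the upper end of PRELP, so that bins of 25 kb cannot separate it from that end. The set of FMOD was less like any other, with an index of 0.33 for PRELP (2 of 6 loops) and for ATP2B4 (1 of 3), and 0.17 for OPTC (1 of 6). The loop that PRELP did not share with OPTC was the FMOD pixel of 125 kb.

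None of the loci on chromosomes 9, 5 and X lay inside a listed domain, a stretch of chromatin that contacts itself more than its surroundings. Domains held 2 of the 8 genes, OGN and ASPN, against 26.0% of protein-coding genes. The FMOD and PRELP locus lay in an interval without a listed domain from 56890001 to 64560000, of 7670 kb, longer than or equal to 98.9% of the 1788 such intervals, whose median was 360 kb. The 9 loops inside that interval included the 7 near FMOD and PRELP. The next domain above began 353 kb from PRELP. No setting of the domain caller is known here, so an interval without a listed domain does not show that folding was absent.

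OGN and ASPN showed another arrangement, inside a loop and not at its anchors. OGN, or osteoglycin, lay at 42116521 to 42135940 and ASPN, or asporin, a collagen-binding protein with an aspartate-rich stretch, at 42165553 to 42192902 of chromosome 3. Both fell within a domain from 42050001 to 42340000, of 290 kb. OMD and ECM2, related genes of the same cluster, were also in it, and all 4 genes lay within the span of CENPP, a centromere protein gene. A loop of 275 kb, from the bin at 42050001 to that at 42325001, joined the bins holding both edges of the domain, with 91 contacts (73.3 to 112) against 49.9 expected. Its ratio was 1.82 (1.47 to 2.24), and its largest FDR, 0.0637, was the highest of the 9 loops. The touching loop of 250 kb, which started a bin further in, at 42075001, had 144 contacts (121 to 170) against 57.8 expected. Its ratio was 2.49 (2.10 to 2.93), with a largest FDR of 6.49e-08. The intervals of the observed counts do not overlap, and those of the ratios do.

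The loop of 250 kb was among the most frequent contacts of its span, at or above 97.9% of 144 autosomal loops in observed contacts, whose median was 99. Its ratio stood at 87.5% and its expected contacts at 80.6% of the same loops. The loop of 275 kb stood at 55.0%, 8.53% and 76.0% of 129 loops in observed contacts, ratio and expected contacts. The anchor bins held ends of NOL8, a nucleolar protein gene, and CENPP on the lower side of the 275 kb loop. The lower bin of the 250 kb loop held no gene end, and the shared upper bin lay in the body of IPPK, an inositol phosphate kinase gene. OGN was 16.5 kb from the nearer lower anchor and 189 kb from the upper anchor. ASPN was 65.6 kb and 132 kb from the same anchors, so both genes lay closer to the lower side.

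DCN, LUM and KERA had no loop within 50 kb and no loop enclosing them. DCN, or decorin, which binds collagen and TGF-beta, lay at 91678601 to 91713925 of chromosome 5. LUM, or lumican, lay at 91748871 to 91756381 and KERA, or keratocan, at 91794317 to 91802362, and both are keratan sulfate proteoglycans known for their part in the transparency of the cornea. The nearest anchor was 154 kb below DCN, 224 kb below LUM and 269 kb below KERA, distances that 58.0%, 65.1% and 68.5% of protein-coding genes reached or stayed under. The nearest anchor on the upper side was at 93150001, which left 1625 kb without an anchor around the cluster. Of 3874 such stretches between anchors on placed chromosomes, whose median was 150 kb, 91.1% were no longer than this.

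The cluster on chromosome 5 lay between domains. The interval from 91530001 to 91900000, of 370 kb, was close to the median of 360 kb and held 5 protein-coding genes, DCN, LUM, KERA, EPYC and CCER1. Below it was a domain of 1160 kb and above it one of 1230 kb. A loop of 1100 kb, between the bins at 90400001 and 91500001, ended 154 kb below DCN with 72 contacts (56.3 to 90.7) and a ratio of 2.37. KERA was the member nearest to a domain edge on this chromosome, at 97.6 kb. Of the 8 genes, 0 had an end within 50 kb of a domain edge, against 33.9% of protein-coding genes.

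BGN, or biglycan, a close relative of decorin with which it shares class I, lay at 124282048 to 124295450 of chromosome X. Its nearest anchor was 230 kb above it, a distance that 65.5% of genes reached or stayed under. A loop of 825 kb, between the bins at 123975001 and 124800001, enclosed it at 282 kb on the lower and 505 kb on the upper side. This loop had 30 contacts (20.2 to 42.8) against 5.97 expected, a ratio of 5.03 (3.39 to 7.17), and its largest FDR was 0.0040. The median of the 37 listed loops of X, taken over all spans, was 50 contacts and a ratio of 3.01. The loop of 825 kb was thus not compared with loops of equal span. The copy number of X in these samples is not given, and its contact counts were not corrected for it. Chromosome X had 15 listed domains, and the last ended 2722 kb below BGN. Of the protein-coding genes of X, 5.38% met an anchor with a gene end and 16.8% had an anchor within 50 kb. Over all protein-coding genes these shares were 17.3% and 40.8%, so that a gene without a loop was the common case on X and elsewhere.

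**Figure D3:**
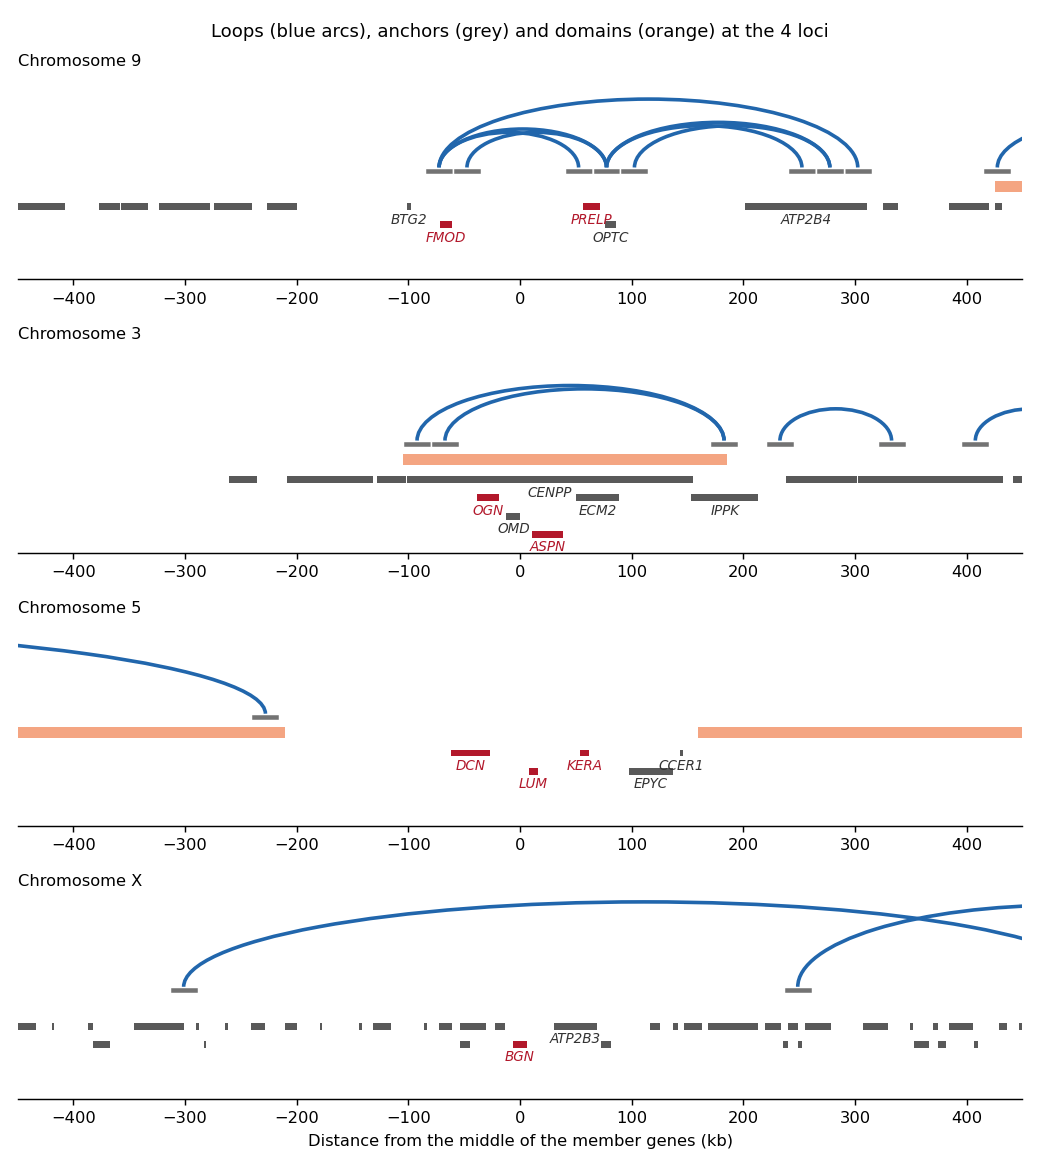
Loops (blue arcs), anchors (grey), listed domains (orange) and protein-coding genes (dark boxes, members in red) at the 4 loci, drawn to one scale in kb from the middle of the member genes. Arc height grows with span up to a fixed limit and has no unit. Anchors meet member genes on chromosome 9, OGN and ASPN lie inside a loop and a domain on chromosome 3, DCN, LUM and KERA lie between domains on chromosome 5, and BGN lies under a loop of 825 kb on chromosome X, whose upper anchor is outside the panel.

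**Figure D4:**
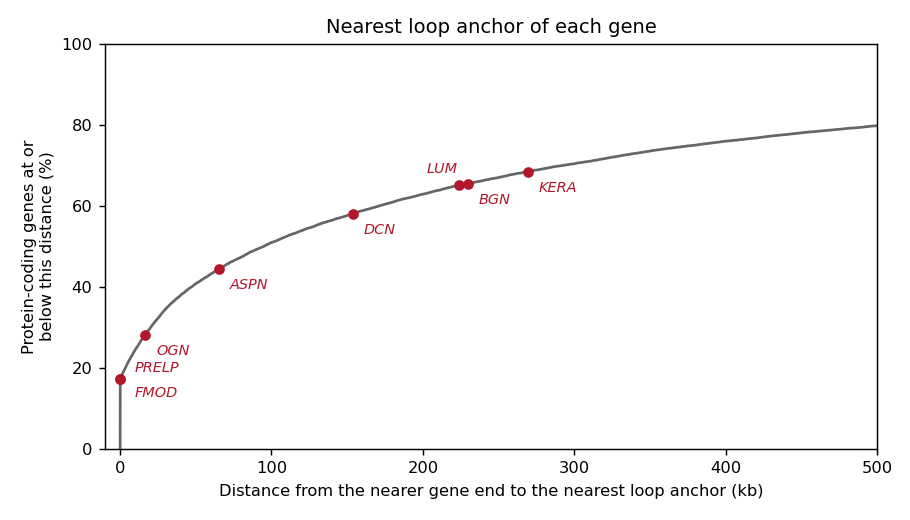
Cumulative share (%) of 19550 protein-coding genes by the distance in kb from the nearer gene end to the nearest loop anchor (line, cut at 500 kb), with the 8 members as red points on that line. FMOD and PRELP are at 0 kb with 17.3% of genes, and the other 6 run from 16.5 kb (OGN) to 269 kb (KERA).

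The 8 genes in order of distance to an anchor were FMOD and PRELP at 0 kb, OGN at 16.5 kb, ASPN at 65.6 kb, DCN at 154 kb, LUM at 224 kb, BGN at 230 kb and KERA at 269 kb. Their median was 110 kb, and that of all protein-coding genes was 94.9 kb. Neighbours within a locus share their anchors, so these distances amount to 4 places in the genome. LUM and BGN differ by less than the bin of 25 kb.

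Of the 9 other family members, OPTC was the single gene with an end in an anchor, beside 17.3% of all protein-coding genes. OMD, ECM2 and PODNL1 (3 of 9) were inside a domain, beside 26.0%. OMD, a bone and tooth matrix protein, lay 42.6 kb from an anchor, and ECM2, an extracellular matrix protein, lay 81.3 kb away. EPYC, the class III gene beside KERA, lay 313 kb from an anchor and 22.2 kb from a domain edge. PODNL1 lay 14.7 kb from an anchor, NYX 94.5 kb, PODN 180 kb, CHAD 504 kb and TSKU 959 kb. As for the lists that follow, these counts are descriptions without a test.

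Of 14 collagens that the family binds or lies beside, 12 were matched, and COL14A1, which codes for a fibril-associated collagen, was the single gene at an anchor (8.33%, beside 17.3% of all protein-coding genes). It had 2 loops with 61 and 82 contacts and ratios from 2.03 to 2.35. Genes of the enzymes that build glycosaminoglycan chains were at anchors in 7 of 22 matched (31.8%). CHSY1, a chondroitin synthase, had 3 loops with 108 to 144 contacts, and B4GALT1, a galactosyltransferase, had 2 with 200 and 216. B3GNT7, which extends keratan sulfate, had 2 loops. XYLT1, which starts the chain on the core protein, had 1, as did FAM20B, a kinase of the linker, and the sulfotransferases CHST15 and CHST2. Among 15 proteoglycans of other families, 4 were at anchors (26.7%). Of the same 15, however, 5 had an anchor within 50 kb, beside 40.8% of all protein-coding genes, and 2 were inside a domain, beside 26.0%. Their median distance to the nearest anchor was 482 kb, and that of all protein-coding genes was 94.9 kb. SDC3 had 2 loops, with ratios of 2.22 and 2.58, and SDC1, another syndecan, HSPG2, which codes for perlecan, and SRGN, the proteoglycan of secretory granules in blood cells, had 1 each. Of 9 ligands and receptors of TGF-beta signalling and related genes, WISP1 was the single gene at an anchor, with 2 loops of 101 and 110 contacts. The largest FDR reached 0.0728 among the loops of CHSY1, 0.0617 among those of B3GNT7 and 0.0565 for the single loop of HSPG2. For the other list genes at anchors it stayed below 0.05. Loops of these lists were counted as pixels, without grouping those that touch.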

How the data were processed

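In situ Hi-C of pig spleen was deposited as 2 tables for the whole series. HiC-Pro 3.1.0 is among the tools of the submitters' processing notes. Per the file headers, juicer_tools 1.9.9 wrote the loops, and the deposited table gives observed contact counts per pixel of 25 kb, not normalized. Per the file headers it also gives the expected signal from 4 neighbourhoods and 4 FDR columns (q-values), the largest value being 0.0999. The sources used here name no domain caller and do not say whether replicates were pooled.

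Genes came from a RefSeq table of Sscrofa11.1, without strand, so a gene end is either annotated end. All 8 members matched by symbol. No file header names the build. On the 18 autosomes the last listed feature ended between 2995 kb below and 160 kb above the last annotated gene. Coordinates count from 1.

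The ratio of observed to expected contacts used the deposited donut value unless stated. Poisson intervals (95%, scipy 1.17.1) cover counting error only. Percentiles are shares of autosomal loops of equal span with a value at or below. The counting functions were tested on simulated data. The members and lists were chosen with earlier results of these data known, and no hypothesis test was made. Named were all members, genes at the far anchors of their loops, up to 3 genes with the most similar loop sets, and list genes at anchors. Other family members, and genes holding or beside anchors, were named after their values were seen. Alternatives were other distances, anchor widths, loop subsets, domain rules and neighbourhoods.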

Additional observations from a re-analysis of the deposited data

How the results depend on the processing

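No paired analysis was possible because the deposited tables hold no value per replicate, and no replicate could be left out. Of 27 alternatives, 22 left the value within 1.5 times for counts or within the Poisson interval of the median loop for the ratio. Loops at PRELP ends fell from 5 to 2 when touching pixels were reduced to 1, and also to 2 in the 1710 placed loops with the lower FDR. Loops joining PRELP and FMOD went from 2 to 1 in both. The pixel of 150 kb was listed at an FDR of 0.0111, the limit of that subset, where 34 loops were tied. With the limit set below that value it would be left out as well. The median ratio of the loops near members, 1.90 over 9 loops, was 2.41 in that subset (4 loops), which by its construction leaves out the pixels with a higher FDR. It lay between 1.69 and 2.21 in the other 6 alternatives. Within 100 kb, 4 members had an anchor, against 50.9% of all genes. At FDR up to 0.05, PRELP kept its 5 loops, and the FMOD to ATP2B4 loop and the CENPP to IPPK loop of 275 kb were left out. Contact counts of 77 to 144 limit the precision.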

Other observations

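Beyond the FMOD and PRELP locus, the following loops of chromosome 9 lay at or within listed domains. The next loop toward higher coordinates, of 225 kb, joined the bin at 64550001, with ends of ZC3H11A and SNRPE, a core protein of the spliceosome, to the bin at 64775001, with ends of SOX13, a transcription factor, and ETNK2. It had 107 contacts (87.7 to 129) against 41.7 expected, a ratio of 2.57, and its largest FDR was 1.55e-08. The domain from 64560001 to 64790000 began and ended in the same bins. The following loop, of 175 kb, started in the bin at 64825001, with ends of KISS1, the kisspeptin gene, and GOLT1A. It had 95 contacts (76.9 to 116), a ratio of 2.07 and a largest FDR of 0.0189, and both its anchors lay inside a domain from 64820001 to 65030000, whose edges fell outside the anchor bins. LAX1, an adaptor protein of lymphocyte signalling, lies between ATP2B4 and this stretch, and none of the loops described here had an anchor at its ends.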
